A study of Homo sapiens with 16 samples.

Results

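The line difference was examined in extracellular vesicles (EVs) captured with exoRNeasy, in 2 libraries of PC3 EVs and 2 libraries of MDA-MB-231 EVs, which are 4 of the 16 libraries of the series. The members were taken by label, as all exoRNeasy EV libraries of either line, and no measured value entered the choice. PC3 is an established human prostate cancer line and MDA-MB-231 (MDA-231 in the labels) an established human breast cancer line. Both are labelled wild type, untreated and epithelial, and grown in DMEM with 5% fetal bovine serum, although the methods of the study give a higher serum share for MDA-MB-231. The conditioned medium came from cells held in serum-free medium. exoRNeasy (Qiagen) binds EVs to an affinity membrane and purifies their RNA on a second column. The other 12 libraries, used here only for the fit and for side-by-side values, were EVs of both lines isolated by ultracentrifugation (UC, named VC in the table headers and read as UC because the sources name no other method) or by an aqueous two-phase system (ATPS), and the donor cells. A single line stands for each tissue, so a difference belongs to these 2 lines, and line and culture conditions cannot be told apart. Separate cultures are not named for the replicates, and the p-values therefore rest on a spread between libraries that may be technical.

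EVs are membrane-bound particles that cells release and that hold a selection of the RNA of their donor. MicroRNAs (miRNAs) are short RNAs cut from hairpin precursors. They guide Argonaute proteins to mRNAs mainly through the seed, bases 2 to 8 from the 5′ end. Small nucleolar RNAs (snoRNAs) guide chemical changes on other RNAs: C/D box snoRNAs direct 2′-O-methylation and H/ACA box snoRNAs direct pseudouridylation, while a few, such as U3 and U8, take part in the processing of the ribosomal RNA precursor. Circular RNAs (circRNAs) are closed loops made by back-splicing of exons. These classes have all been reported in EVs of cultured cancer cells.

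The mature miRNAs on which the comparison turned are shown with the seed in capitals, because several share a seed and reads of near-identical miRNAs are easily exchanged in counting. Sequences are from RefSeq (GRCh38.p14), where 49 of the 58 miRNA entries named by rule had a location.
miR-182-5p: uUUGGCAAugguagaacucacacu
miR-27a-5p: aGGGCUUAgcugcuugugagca
miR-500a-5p: uAAUCCUUgcuaccugggugaga
miR-30a-5p: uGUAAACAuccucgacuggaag
miR-30e-5p: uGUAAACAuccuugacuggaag
miR-30c-5p: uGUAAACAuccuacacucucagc
miR-21-5p: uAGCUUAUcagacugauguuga
miR-103a-3p: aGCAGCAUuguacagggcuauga
miR-107: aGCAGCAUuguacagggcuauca
miR-4488: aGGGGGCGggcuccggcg
miR-663b: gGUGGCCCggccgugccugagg
The 3 members of the miR-30 family have 1 seed, and so do miR-103a-3p and miR-107. miR-182-5p lies at chr7:129770447-129770470 on the minus strand, in an intron of a long non-coding RNA gene. miR-27a-5p lies at chr19:13836487-13836508 on the minus strand, within an exon of the non-coding host MIR23AHG. miR-30a-5p lies at chr6:71403595-71403616 on the minus strand, in an intron of LINC00472. miR-21-5p lies at chr17:59841273-59841294 on the plus strand, over an annotated exon of VMP1. miR-500a-5p lies at chrX:50008443-50008465 on the plus strand, in an intron of CLCN5, and its letters also occur from position 10 of the neighbouring MIR500B hairpin, which had the same reads. The letters of miR-4488 and miR-663b occur in full in 3 of the 4 RefSeq genes of the ribosomal RNA precursor, and no other tested miRNA with a sequence matched one of them.

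Depth differed between classes far more than between lines. The miRNA tables held 3162 and 2508 reads in PC3 EVs, against 4886 and 1982 in MDA-MB-231 EVs. The snoRNA tables held 53435 and 50962 reads in PC3 EVs, against 111985 and 43868 in MDA-MB-231 EVs. Values are TPM as the authors name it, which here is a share of the reads of the class scaled to a fixed total with no length term, so 1 miRNA read was worth 205 to 505 TPM and each value depends on all others of its class. Counting error sets the precision of low values, and PCR reads without molecular identifiers are not independent molecules. In these bulk samples fewer vesicles that carry an RNA and fewer copies in each vesicle cannot be told apart. Library replicates differed by more than sampling noise in all 3 classes by a chi-square test, and all 4 libraries were kept.

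The number of species overlapped between the lines for miRNAs and snoRNAs as sequenced, and no difference passed the exact permutation test, whose smallest two-sided p is 0.333. PC3 EVs held 176 and 154 miRNA entries, against 237 and 167 in MDA-MB-231 EVs (165 ± 15.6 and 202 ± 49.5, SD, n = 2 each, exact permutation test, two-sided p = 0.667). At equal read numbers the expected counts were 144 and 138 in PC3 EVs and 159 and 167 in MDA-MB-231 EVs (exact permutation p = 0.333). At equal reads the groups did not overlap, with fewer entries in both PC3 libraries. snoRNA entries numbered 262 and 267 in PC3 EVs, against 315 and 250 in MDA-MB-231 EVs (exact permutation p = 1). For circRNAs, 37416 and 37290 entries were present in PC3 EVs, against 59261 and 38670 in MDA-MB-231 EVs (exact permutation p = 0.333), and at equal reads the groups overlapped (exact permutation p = 1). The lines shared most of what was abundant. Of miRNA entries, 228 were present in PC3 EVs and 287 in MDA-MB-231 EVs, and the 147 present in both made up 64.5% of the PC3 set and 51.2% of the MDA-MB-231 set but held 96.9% of the reads in PC3 EVs and 95.0% of the reads in MDA-MB-231 EVs. For snoRNAs, 272 entries were shared, 94.8% of the PC3 set and 85.3% of the MDA-MB-231 set.

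Marker miRNAs were near 0, with miR-138-5p of the neuron list as the exception. The miR-200 family and miR-205, which mark epithelium, gave 1 read in all (miR-200b-3p in PC3 replicate 2), and 1 of their 5 entries in the table had any read in these libraries. They were as scarce in the donor cells, where miR-200b-3p had 6 and 8 reads in PC3 cells against 5 and 0 in MDA-MB-231 cells. These epithelial markers were thus at or near 0 in both lines, although both are labelled epithelial. Of blood cell, endothelial and liver markers, only miR-486-5p was seen, with 0 reads in both PC3 libraries and 1 and 2 reads in the MDA-MB-231 libraries. Muscle markers had no read. The neuron list summed to 0.0633% and 0.0399% of miRNA TPM in PC3 EVs, against 0.839% and 1.31% in MDA-MB-231 EVs. In MDA-MB-231 EVs miR-138-5p gave 41 and 25 of these reads, while miR-9-5p and miR-128-3p had 0 reads in both libraries. The donor cells held 68 and 0 reads of miR-138-5p in MDA-MB-231, the second in a library of 153 miRNA reads, and 0 in both PC3 libraries. MDA-MB-231 EVs had 102 and 32 reads of it with UC and 26 and 4 with ATPS. PC3 EVs had 1 and 0 with UC and 0 in both ATPS libraries. The part of such cells in any result was not tested.

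miRNA levels differed widely between the lines. PC3 EVs were dominated by miR-182-5p, while miR-30a-5p, miR-21-5p and several hairpin-named entries took a larger share in MDA-MB-231 EVs. With limma on log2(TPM + 505), the pseudocount being the value of 1 read in the shallowest library, 80 of 188 tested entries passed an adjusted p of 0.05 (42.6% of those tested), 36 higher (19.1%) and 44 lower (23.4%) in PC3. edgeR's quasi-likelihood test on the recovered reads called 25 entries (13.3%), 6 higher and 19 lower, and all 25 were among the limma calls. Many of the limma calls rest on 1 to 6 reads. Of the tested entries 16 had reads in both PC3 libraries and none in MDA-MB-231 EVs, and 25 had the reverse. Such entries passed the filter through 1 line alone and could not overlap. The shares over all tested miRNAs include them. Of the 67 entries with a mean of at least 5 reads in the higher line, limma called 15 higher and 23 lower, and the description centres on these. In each of them the lines did not overlap, beside 60.1% of all tested entries. The counts include entries with the same reads: miR-500a-5p with mir-500b, the mir-3648 pair, and mir-181a-1 with mir-181a-2. Fitted on the 4 exoRNeasy libraries alone, 19 entries were called, 6 higher and 13 lower.

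**Figure D1:**
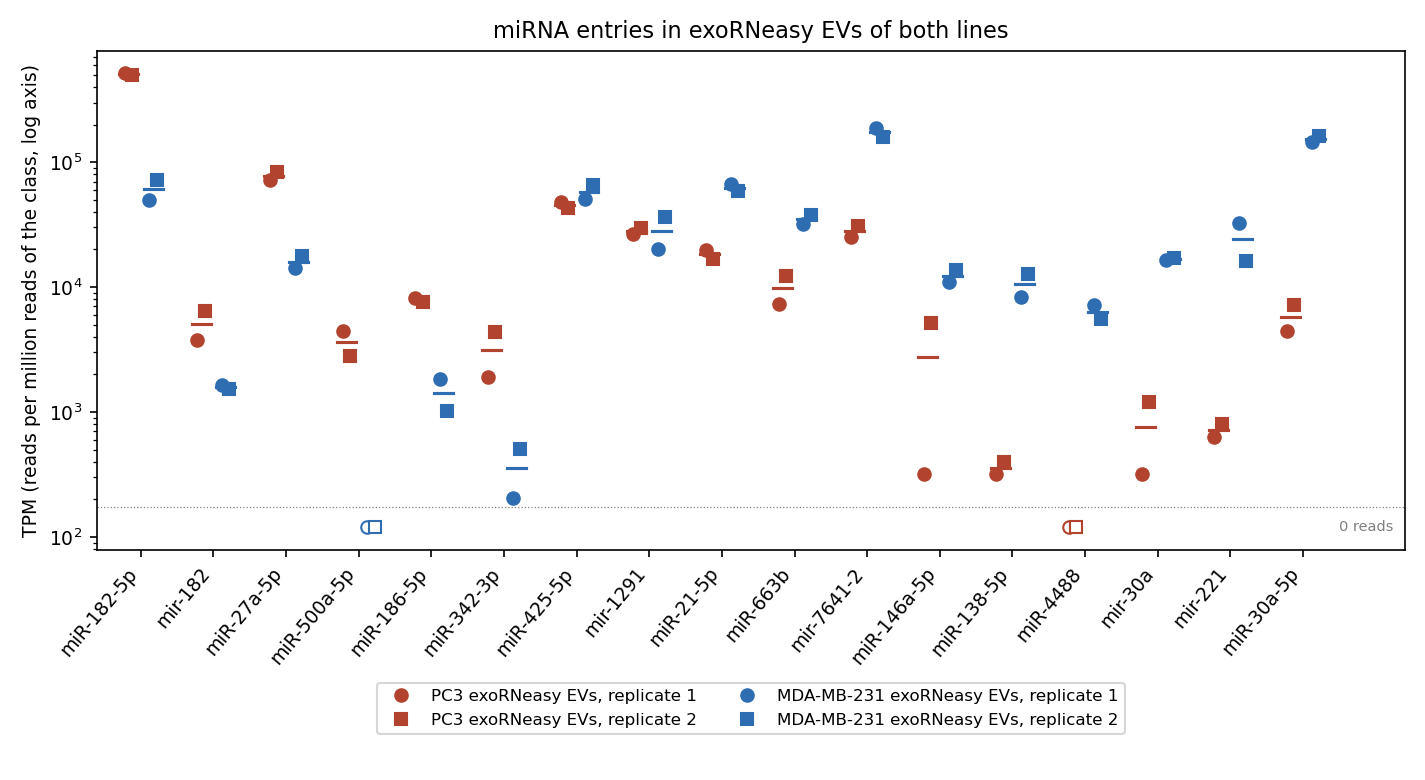
Levels of named miRNA entries in the 4 exoRNeasy EV libraries, on a log axis in TPM. Each point is 1 library (red, PC3; blue, MDA-MB-231; circles, replicate 1; squares, replicate 2), bars are group means, and open points mark 0 reads. Levels of miR-182-5p were 513915 and 496412 TPM in PC3 EVs, far above those in MDA-MB-231 EVs, and miR-30a-5p at the right had the opposite order.

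Among entries higher in PC3 EVs, miR-182-5p stood first. It comes from a cluster on chromosome 7 that also encodes miR-183 and miR-96, known from sensory organs and often raised in prostate tumours. miR-182-5p had 513915 and 496412 TPM in PC3 EVs, against 49734 and 71645 TPM in MDA-MB-231 EVs. The groups were wide apart, and in both PC3 libraries about every second miRNA read was this one species. Its mean was 8.32-fold higher (log2 difference 3.07 ± 0.29 SE, limma adjusted p = 1.1e-06, edgeR adjusted p = 3.81e-19). The whole cluster list made up 52.2% and 50.8% of miRNA TPM in PC3 EVs, against 5.24% and 7.42% in MDA-MB-231 EVs. Of its 5 tested entries 4 were higher and none lower, beside 19.1% and 23.4% over all tested miRNAs. Their median log2 difference was 1.39, beside -0.15 over all tested entries. The other called members were low: the hairpin entry mir-182 had 12 and 16 reads in PC3 EVs against 8 and 3 in MDA-MB-231 EVs, and miR-183-5p had 11 and 5 against 3 and 2. For mir-182 (1.39, limma adjusted p = 0.0152), mir-183 (1.78, 0.00897) and miR-183-5p (1.28, 0.0414), edgeR gave adjusted p-values of 0.154, 0.126 and 0.191. The call of mir-183 was lost without PC3 replicate 2 (limma adjusted p = 0.0749), that of mir-182 without PC3 replicate 2 (0.0749) or MDA-MB-231 replicate 2 (0.0508), and that of miR-183-5p without PC3 replicate 1 (0.168) or either MDA-MB-231 library (0.149 without replicate 1, 0.0508 without replicate 2).

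miR-27a-5p, the passenger arm of the miR-23a/27a/24-2 hairpin cluster, was the second most abundant species called higher in PC3. It had 72422 and 82935 TPM in PC3 EVs, against 14122 and 17659 TPM in MDA-MB-231 EVs. The lowest PC3 value was above 4 times the highest MDA-MB-231 value. The mean was 4.89-fold higher (log2 2.26 ± 0.33, limma adjusted p = 7.63e-05, edgeR adjusted p = 3.71e-07). In the miR-23, miR-27 and miR-24 list 2 of 10 tested entries were higher and 2 lower, close to the 19.1% and 23.4% over all tested miRNAs, and its summed share was 8.70% and 9.49% in PC3 EVs against 3.23% and 3.28% in MDA-MB-231 EVs. On the lower side was miR-27b-3p, the main arm of the paralogous chromosome 9 hairpin, with 0 reads in both PC3 libraries against 8 and 2 reads in MDA-MB-231 EVs (at least 2.75-fold lower in PC3, limma adjusted p = 0.00809, edgeR adjusted p = 0.0484).

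miR-500a-5p was read only in PC3 EVs among these 4 libraries. It had 14 and 7 reads in PC3 EVs and 0 in both MDA-MB-231 libraries, which puts it at least 8.48-fold higher, taking 3 reads over both MDA-MB-231 libraries as the limit (limma adjusted p = 0.000273, edgeR adjusted p = 0.000885). The hairpin entry mir-500b carried the same reads and is no separate observation. miR-186-5p, hosted in an intron of ZRANB2, had 8223 and 7576 TPM in PC3 EVs, against 1842 and 1009 TPM in MDA-MB-231 EVs, a 5.54-fold higher mean (log2 2.16 ± 0.45, limma adjusted p = 0.00182, edgeR adjusted p = 0.041). Its direction did not recur with the other isolation methods, whose values are given with the methods. miR-342-3p, from an intron of EVL, had 6 and 11 reads in PC3 EVs against 1 and 1 in MDA-MB-231 EVs (log2 2.02, limma adjusted p = 0.00786, edgeR adjusted p = 0.0472), and its call was lost without PC3 replicate 2 (limma adjusted p = 0.0546). miR-330-3p had 7 and 5 reads in PC3 EVs against 1 and 0 in MDA-MB-231 EVs (limma adjusted p = 0.00402, edgeR adjusted p = 0.0557). miR-378a-3p, miR-769-5p, miR-3614-5p and the mir-3648 pair, with at least 5 reads on average, did not pass edgeR, and each lost its limma call when a single library was left out, with limma adjusted p-values of 0.0981, 0.0995, 0.0995 and 0.133 without MDA-MB-231 replicate 1. miR-181d-5p, the last of the 15, did not pass edgeR either.

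Among entries lower in PC3 EVs, miR-30a-5p had the largest difference. The miR-30 family is broadly expressed in epithelial tissue and is known to restrain mesenchymal transition in several cell types. miR-30a-5p had 4428 and 7177 TPM in PC3 EVs, against 144904 and 162967 TPM in MDA-MB-231 EVs. No library came near the other group: 14 and 18 reads stood against 708 and 323. The mean was 26.5-fold higher in MDA-MB-231 EVs (log2 difference, PC3 minus MDA-MB-231, -4.65 ± 0.37, limma adjusted p = 6.99e-08, edgeR adjusted p = 2.95e-25). Its hairpin entry mir-30a followed with 1 and 3 reads in PC3 EVs against 80 and 34 in MDA-MB-231 EVs (log2 -3.87, limma adjusted p = 6.76e-06, edgeR adjusted p = 4.98e-08). The family list, with both arms and the hairpins, summed to 1.87% and 1.67% of miRNA TPM in PC3 EVs, against 17.5% and 20.4% in MDA-MB-231 EVs. Of its 10 tested entries 4 were lower and 1 higher, beside 23.4% and 19.1% over all tested miRNAs, with a median of -0.46. Among the 4 lower entries, miR-30a-5p and mir-30a come from 1 hairpin and are not separate observations. The higher one, miR-30e-3p, is an opposite arm and does not share the seed printed above. miR-30e-5p had 1 and 7 reads in PC3 EVs against 20 and 20 in MDA-MB-231 EVs (log2 -2.09, limma adjusted p = 0.00894, edgeR adjusted p = 0.0338), a call lost without PC3 replicate 1 (0.0934) or MDA-MB-231 replicate 2 (0.0923). miR-30c-5p had 4 and 0 reads in PC3 EVs against 14 and 4 in MDA-MB-231 EVs, and the lines met at 4 reads though not in TPM. It did not pass edgeR (adjusted p = 0.19), and without PC3 replicate 2 or MDA-MB-231 replicate 1 its limma adjusted p was 0.275 and 0.104.

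miR-21-5p, a widely expressed miRNA that is high in many tumours, was lower in PC3 EVs. It had 19924 and 16746 TPM in PC3 EVs, against 66517 and 58527 TPM in MDA-MB-231 EVs, so that the mean was 3.41-fold higher in MDA-MB-231 EVs (log2 -1.74 ± 0.30, limma adjusted p = 0.000295, edgeR adjusted p = 0.000144). The groups did not overlap. The hairpin entry mir-21, with 182 and 162 reads in PC3 EVs against 488 and 152 in MDA-MB-231 EVs, was not called (log2 -0.52, limma adjusted p = 0.0852). miR-146a-5p, a feedback regulator of NF-κB signalling, had 1 and 13 reads in PC3 EVs against 54 and 27 in MDA-MB-231 EVs (log2 -2.56, limma adjusted p = 0.00809, edgeR adjusted p = 0.00442). Its PC3 replicates were far apart, and without PC3 replicate 1 the limma adjusted p was 0.0817 (log2 -1.17). miR-138-5p had 1 and 1 reads in PC3 EVs against 41 and 25 in MDA-MB-231 EVs (log2 -3.65, limma adjusted p = 0.000103, edgeR adjusted p = 2.45e-05). The paralogues miR-103a-3p and miR-107, hosted in introns of pantothenate kinase genes, were both lower by limma. miR-107 had 5 and 0 reads in PC3 EVs against 26 and 7 in MDA-MB-231 EVs (log2 -2.24, limma adjusted p = 0.00497, edgeR adjusted p = 0.0216). miR-103a-3p had 5 and 2 against 27 and 7 (log2 -1.58, limma adjusted p = 0.00809, edgeR adjusted p = 0.051), and its limma call was lost without MDA-MB-231 replicate 1 (0.0589). They differ near the 3′ end only, so the split of reads between them is uncertain.

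Much of the MDA-MB-231 side was carried by hairpin names. Entries named for hairpins, or otherwise without a mature arm, took 18.4% and 19.9% of miRNA TPM in PC3 EVs, against 45.5% and 39.5% in MDA-MB-231 EVs (exact permutation p = 0.333, the smallest possible). Reads under a hairpin name can be fragments of the hairpin or of another RNA with the same letters, and the tables do not separate them. mir-7641-2, a hairpin entry on the list of those that overlap other RNA classes, had 25300 and 31100 TPM in PC3 EVs, against 189316 and 158426 TPM in MDA-MB-231 EVs. It was the most abundant entry in MDA-MB-231 replicate 1, with a mean 6.17-fold above that in PC3 EVs (log2 -2.60 ± 0.20, limma adjusted p = 6.99e-08, edgeR adjusted p = 3.08e-13). That list, of entries that overlap ribosomal, transfer, small nuclear or small nucleolar RNA, summed to 7.50% and 8.85% in PC3 EVs, against 27.2% and 24.7% in MDA-MB-231 EVs, with a median log2 difference of -0.40. Of its 17 tested entries 2 were higher and 3 lower, a smaller share each way than the 19.1% and 23.4% over all tested miRNAs, and in MDA-MB-231 EVs mir-7641-2 made up most of the sum. miR-4488 and miR-663b, whose letters occur in the ribosomal RNA precursor, were also lower. miR-4488 had 0 reads in both PC3 libraries against 35 and 11 reads, at least 12.7-fold lower in PC3 (limma adjusted p = 6.76e-06, edgeR adjusted p = 3.46e-05). miR-663b had 23 and 31 reads in PC3 EVs against 155 and 75 (log2 -1.81, limma adjusted p = 0.00187, edgeR adjusted p = 0.000733). The share of ribosomal RNA in the libraries was not measured here, and its part in these calls was not tested.

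The hairpin entry mir-221 was the second largest difference among entries with reads in every library. miR-221 and miR-222, a pair with 1 seed encoded on chromosome X, repress the cell cycle inhibitor CDKN1B. mir-221 had 632 and 797 TPM in PC3 EVs, from 2 reads in each library, against 32337 and 16145 TPM in MDA-MB-231 EVs (log2 -4.26 ± 0.43, limma adjusted p = 1.21e-06, edgeR adjusted p = 1.28e-11). The list of 6 entries had 2 lower and none higher, beside 23.4% and 19.1% over all tested miRNAs. Its sum was 3.38% and 4.43% in PC3 EVs against 6.79% and 6.10% in MDA-MB-231 EVs, a narrower gap than that of its hairpin entry. The hairpin entries mir-181a-1, mir-181a-2 and mir-181b-1 were lower too. mir-181b-1 had 2 and 5 reads in PC3 EVs against 39 and 15 in MDA-MB-231 EVs (log2 -2.30, limma adjusted p = 0.00161, edgeR adjusted p = 0.000277). The mature entry miR-181d-5p went the other way, called higher by limma but not by edgeR, so miR-181 names stood on both sides. mir-3190 and mir-19a had no read in PC3 EVs and 16 and 7, and 8 and 7 reads, in MDA-MB-231 EVs, which puts them at least 6.33-fold and at least 4.13-fold lower in PC3 (limma adjusted p = 4.86e-05 and 8.82e-05, edgeR adjusted p = 0.00147 and 0.0129).

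Several well-known families took a similar share of miRNA TPM in both lines or held few calls, and their sums were not tested. miR-182-5p alone took 513915 and 496412 TPM in PC3 EVs, against 49734 and 71645 TPM in MDA-MB-231 EVs. A like share of the whole is therefore not a like share of the remaining reads. The let-7 family, regulators of RAS and HMGA2, made up 1.49% and 1.56% of miRNA TPM in PC3 EVs, against 1.64% and 1.41% in MDA-MB-231 EVs, which overlap. Of its 11 tested entries 2 were lower and none higher, beside 23.4% and 19.1% over all tested miRNAs. miR-425 and miR-191 made up 4.97% and 4.31% in PC3 EVs, against 5.22% and 6.66% in MDA-MB-231 EVs, which do not overlap, and none of 3 tested entries was called. miR-425-5p itself had 153 and 107 reads in PC3 EVs against 250 and 129 in MDA-MB-231 EVs (log2 -0.34, limma adjusted p = 0.325). mir-1291, whose hairpin lies on a snoRNA, had 84 and 75 reads in PC3 EVs against 99 and 72 in MDA-MB-231 EVs (log2 0.05, limma adjusted p = 0.901). miR-16-5p had 1 and 2 reads in PC3 EVs against 4 and 1 in MDA-MB-231 EVs (log2 -0.16, limma adjusted p = 0.738). The miR-17-92 group of clusters was unlike these families. Of its 10 tested entries 2 were higher and 4 lower, all on few reads, beside 19.1% and 23.4% over all tested miRNAs. It summed to 0.127% and 0.399% of miRNA TPM in PC3 EVs, against 0.491% and 0.908% in MDA-MB-231 EVs, which do not overlap.

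Fewer snoRNAs than miRNAs were called by limma, while the shares called by edgeR were alike, and the difference between classes was not tested. With limma on log2(TPM + 22.8), 32 of 289 tested entries passed (11.1%), 9 higher (3.11%) and 23 lower (7.96%) in PC3, and edgeR called 34 (11.8%), 6 higher and 28 lower, of which 29 were called by both. In each of these 32 the lines did not overlap, beside 56.1% of all tested entries. Of the tested entries 3 had reads in both PC3 libraries and none in MDA-MB-231 EVs, and 14 had the reverse, so these could not overlap. The most abundant species were C/D box snoRNAs of similar level. SNORD49A had 172658 and 185491 TPM in PC3 EVs, against 111917 and 177168 TPM in MDA-MB-231 EVs (log2 0.35, limma adjusted p = 0.469). SNORD2 had 166763 and 151642 TPM in PC3 EVs, against 218476 and 189158 TPM in MDA-MB-231 EVs (log2 -0.35, limma adjusted p = 0.389). SNORD2 is hosted in EIF4A2, the gene of a translation initiation factor, and SNORD49A in the non-coding SNHG29, and the snoRNA lists of those hosts held no call. The same was true of the lists hosted in SNHG1, RPL7A and RABGGTB.

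**Figure D2:**
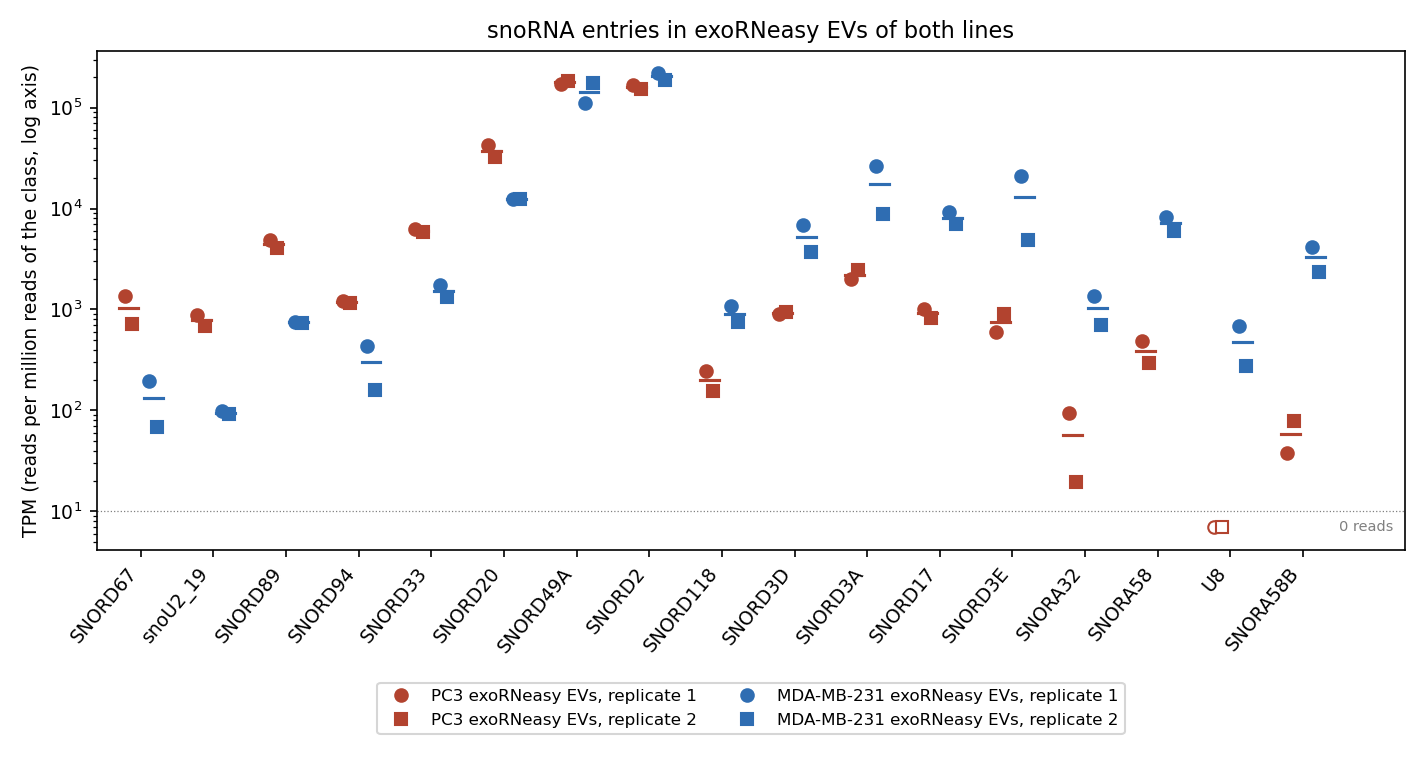
Levels of named snoRNA entries in the 4 exoRNeasy EV libraries, on a log axis in TPM. Each point is 1 library (red, PC3; blue, MDA-MB-231; circles, replicate 1; squares, replicate 2), bars are group means, and open points mark 0 reads. SNORD20 and SNORD89 were higher in PC3 EVs, SNORD49A and SNORD2 overlapped or lay close, and SNORA58 and SNORA58B were far lower in PC3 EVs.

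The calls were counted by box class, beside 3.11% higher and 7.96% lower over all tested snoRNAs. Of 181 tested C/D entries 7 were higher and 9 lower, with a median log2 difference of 0.33. Of 97 tested H/ACA entries none was higher and 12 were lower, with a median of -0.35, beside 0.21 over all tested snoRNAs. The 12 include SNORA50 and SNORA50C, which carried the same reads, and the alike SNORA58 copies. H/ACA snoRNAs made up 2.85% and 3.04% of snoRNA TPM in PC3 EVs, against 6.07% and 3.62% in MDA-MB-231 EVs. The groups did not overlap, but the second MDA-MB-231 library was close to the PC3 range (exact permutation p = 0.333, the smallest possible). Without MDA-MB-231 replicate 1 limma called 15 snoRNAs higher and 15 lower, and without replicate 2 it called 6 higher and 27 lower, so the balance of directions depends on which of these libraries is kept.

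The sequences of 4 called C/D box snoRNAs and of the 2 SNORA58 copies are shown, the first because a read of 1 of these species covers only part of it, the second because the copies are alike. They are from GENCODE v44 on GRCh38 (32 of 37 named snoRNA entries had a location). In the C/D box snoRNAs capitals mark the first TGATGA (the C box letters) and the last CTGA (the D box letters), which 220 of 295 annotated SNORD genes (74.6%) hold together, and in the H/ACA snoRNAs capitals mark the last ACA.
SNORD20: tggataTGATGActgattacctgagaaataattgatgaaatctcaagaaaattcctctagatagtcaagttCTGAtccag
SNORD33: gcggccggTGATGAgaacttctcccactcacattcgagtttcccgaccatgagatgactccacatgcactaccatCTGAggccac
SNORD89: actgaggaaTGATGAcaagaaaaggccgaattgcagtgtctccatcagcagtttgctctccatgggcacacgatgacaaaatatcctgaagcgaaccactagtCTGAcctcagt
SNORD67: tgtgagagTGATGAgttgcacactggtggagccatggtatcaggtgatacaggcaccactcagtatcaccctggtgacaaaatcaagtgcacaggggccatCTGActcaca
SNORA58: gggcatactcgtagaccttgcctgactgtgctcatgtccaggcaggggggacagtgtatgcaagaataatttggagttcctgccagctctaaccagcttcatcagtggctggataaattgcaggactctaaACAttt
SNORA58B: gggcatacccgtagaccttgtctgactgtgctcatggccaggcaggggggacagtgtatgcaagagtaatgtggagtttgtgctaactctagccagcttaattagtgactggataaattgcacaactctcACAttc
SNORD20 lies at chr2:231456444-231456523 on the minus strand in NCL, the nucleolin gene. SNORD33 lies at chr19:49490615-49490699 on the plus strand in RPL13A. SNORD89 lies at chr2:101272936-101273049 on the minus strand in RNF149, and SNORD67 at chr11:46762389-46762499 on the minus strand in an intron of CKAP5. SNORA58 lies at chr3:131479097-131479233 on the minus strand in an intron of MRPL3 and SNORA58B at chr1:154259727-154259862 on the plus strand in UBAP2L, and the copies are 86.9% identical, so the split of reads between them is uncertain.

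Of the 9 snoRNAs higher in PC3 EVs, SNORD20 was the most abundant. It had 42201 and 32456 TPM in PC3 EVs, against 12323 and 12401 TPM in MDA-MB-231 EVs, a 3.02-fold higher mean with no overlap (log2 1.58 ± 0.25, limma adjusted p = 0.000147, edgeR adjusted p = 0.0325). SNORD89 had 4866 and 4023 TPM in PC3 EVs, against 759 and 729 TPM in MDA-MB-231 EVs, a 5.97-fold higher mean (log2 2.54 ± 0.43, limma adjusted p = 0.000225, edgeR adjusted p = 0.00528). Both lines gave closely matched replicates for this species. SNORD33, a methylation guide hosted with its neighbours in RPL13A, had 6288 and 5828 TPM in PC3 EVs, against 1732 and 1322 TPM in MDA-MB-231 EVs, a 3.97-fold higher mean (log2 1.98 ± 0.34, limma adjusted p = 0.000225, edgeR adjusted p = 0.00397). It was the only one of 4 tested RPL13A-hosted snoRNAs that was called.

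SNORD67 and SNORD94, which guide methylation of the spliceosomal RNA U6, were both among the 9. SNORD67 had 72 and 37 reads in PC3 EVs against 22 and 3 in MDA-MB-231 EVs (log2 2.84 ± 0.52, limma adjusted p = 0.000562, edgeR adjusted p = 0.0081). SNORD94 had 65 and 59 reads in PC3 EVs against 49 and 7 in MDA-MB-231 EVs (log2 2.06, limma adjusted p = 0.00431). It did not pass edgeR (adjusted p = 0.0716), and its limma call was lost without MDA-MB-231 replicate 2 (0.0726). The entries snoU2_19 and snoU2-30, named for the spliceosomal RNA U2, were higher as well. snoU2_19 had 47 and 35 reads in PC3 EVs against 11 and 4 in MDA-MB-231 EVs (log2 2.77, limma adjusted p = 0.000123, edgeR adjusted p = 0.00374), while snoU2-30, with 8 and 6 reads against 2 and 0, lost its limma call without PC3 replicate 1 (0.0619) or MDA-MB-231 replicate 2 (0.0547). The 3 tested entries with a SCARNA name were not called. scaRNAs act on spliceosomal RNAs in Cajal bodies, and any entered under another name were not on that list. Whether snoU2_19 and snoU2-30 come from 1 RNA was not examined, so they may not be separate observations. The last of the 9, SNORD15B and SNORD121B, did not pass edgeR (adjusted p = 0.101 and 0.161).

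The largest differences on the MDA-MB-231 side were the SNORA58 copies. SNORA58 had 487 and 294 TPM in PC3 EVs, against 8331 and 5950 TPM in MDA-MB-231 EVs, where its mean was 18.3-fold higher (log2 -4.14 ± 0.57, limma adjusted p = 7.67e-05, edgeR adjusted p = 0.000203). SNORA58B had 37.4 and 78.5 TPM in PC3 EVs, against 4206 and 2371 TPM in MDA-MB-231 EVs, where its mean was 56.7-fold higher (log2 -5.35 ± 0.50, limma adjusted p = 1.12e-06, edgeR adjusted p = 0.000113). Neither pair of groups overlapped, and the PC3 values of SNORA58B rest on 2 and 4 reads. SNORA32 followed with 5 and 1 reads in PC3 EVs against 154 and 31 in MDA-MB-231 EVs (limma adjusted p = 0.000164, edgeR adjusted p = 0.00134). SNORA50 and SNORA50C carried the same reads, 1 and 5 in PC3 EVs against 57 and 23 in MDA-MB-231 EVs, and count as 1 observation. SNORA10, SNORA50A, SNORA57, SNORA65, SNORA71B, SNORA74D and SNORA80E were called by limma over all 4 libraries. Each of these 7 lost that call when a single library was left out, MDA-MB-231 replicate 1 being such a library for all of them (limma adjusted p between 0.0794 for SNORA74D and 0.322 for SNORA65).

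snoRNAs that act in cleavage of the ribosomal RNA precursor were lower in PC3 EVs as a list: of 16 tested entries 8 were lower and none higher, beside 7.96% lower over all tested snoRNAs, with a median of -1.21. They summed to 1.53% and 1.73% of snoRNA TPM in PC3 EVs, against 13.6% and 4.58% in MDA-MB-231 EVs. The 2 MDA-MB-231 libraries differed more from each other than the second of them did from PC3. Of the 8 lower entries 6 are copies of U3 (SNORD3A to SNORD3E), and reads of such alike copies are easily exchanged, so they are not separate observations. The other 2 are SNORD118 and SNORD14B, and SNORD14B lost its call whichever single library was left out (limma adjusted p between 0.0634 and 0.16). SNORD3A had 106 and 125 reads in PC3 EVs against 2977 and 387 in MDA-MB-231 EVs (log2 -2.78, limma adjusted p = 0.000123). Without MDA-MB-231 replicate 1 its log2 difference was -1.99, and without replicate 2 it was -3.58. SNORD3E, an 82.6% identical copy of SNORD3D within an intron of TEX11, had 599 and 903 TPM in PC3 EVs, against 20949 and 4924 TPM in MDA-MB-231 EVs (log2 -3.75 ± 0.53, limma adjusted p = 7.67e-05, edgeR adjusted p = 0.000203), and -2.71 without MDA-MB-231 replicate 1. The U8 entry had no read in PC3 EVs and 77 and 12 reads in MDA-MB-231 EVs, at least 19.9-fold lower in PC3 (limma adjusted p = 0.000135, edgeR adjusted p = 0.00397), and SNORD118, the gene that encodes U8, had 13 and 8 reads in PC3 EVs against 120 and 33 (log2 -2.07, limma adjusted p = 0.00431, edgeR adjusted p = 0.00418), with a limma adjusted p of 0.0805 without PC3 replicate 2. SNORD17, a long C/D snoRNA that guides methylation of the large ribosomal RNA, had 1011 and 824 TPM in PC3 EVs, against 9189 and 7089 TPM in MDA-MB-231 EVs, with a mean 8.87-fold higher in MDA-MB-231 EVs (log2 -3.11 ± 0.37, limma adjusted p = 1.84e-05, edgeR adjusted p = 0.000113). For SNORD17 the replicates of both lines were close.

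The imprinted SNORD115 and SNORD116 arrays, best known from Prader-Willi syndrome, were called in none of 28 tested entries, beside 11.1% over all tested snoRNAs. Their median log2 difference was 0.86, and they summed to 1.28% and 1.61% of snoRNA TPM in PC3 EVs, against 0.665% and 0.937% in MDA-MB-231 EVs. The sums did not overlap, but no single entry passed.

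circRNA tables were dominated by 1 set of entries. The 8 entries from hsa_circ_0040314 to hsa_circ_0040328 carried the same reads (within 1% in every library), at 115989 and 115121 TPM each in PC3 EVs, against 104436 and 106291 TPM each in MDA-MB-231 EVs. Together they made up 92.8% and 92.1% of circRNA TPM in PC3 EVs, against 83.5% and 85.0% in MDA-MB-231 EVs. All other entries thus shared 7.21% and 7.90% in PC3 EVs and 16.5% and 15.0% in MDA-MB-231 EVs, and a share of each low entry moves with that remainder. The sources used here pair these identifiers with no gene name, and none is given. Read sums reached 145594464 and 137327661 in PC3 EVs and 265881619 and 207543553 in MDA-MB-231 EVs, sums over entries in which a read can count several times.

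Among 883 tested circRNA entries limma on log2(TPM + 1) called 563 (63.8%), 262 higher (29.7%) and 301 lower (34.1%) in PC3, and edgeR called 561 (63.5%), 518 of them in common. In each of these 563 the lines did not overlap, beside 83.0% of all tested entries. These are not separate observations: the 883 entries fell into 460 sets with the same reads, the largest of 20 entries, and with 1 entry kept for each set 282 of 460 were called, 143 higher and 139 lower. With the dominant set removed before scaling the calls became 417 higher and 178 lower, and the median difference over all entries went to 1.09, against 0.06 with it, so the balance of directions is set by the scaling. The largest higher entry, hsa_circ_0060056, had 10294 and 10458 reads in PC3 EVs against 292 and 194 in MDA-MB-231 EVs (log2 5.21 ± 0.24, limma adjusted p = 1.18e-06, edgeR adjusted p = 4.43e-05). hsa_circ_0011934 had 4104 and 3330 reads in PC3 EVs against 206 and 179 in MDA-MB-231 EVs (log2 3.90, limma adjusted p = 6.82e-06, edgeR adjusted p = 3e-05). On the lower side hsa_circ_0045845 had 318 and 249 reads in PC3 EVs against 27497 and 9503 in MDA-MB-231 EVs (log2 -4.55 ± 0.57, limma adjusted p = 0.000171, edgeR adjusted p = 0.00017), and hsa_circ_0000146 had 444 and 454 against 27744 and 9578 (log2 -4.08, limma adjusted p = 0.000171, edgeR adjusted p = 0.000162). These 4 kept direction under every scaling tried, and the dominant set did not: its small difference (log2 0.13, limma adjusted p = 0.00034, edgeR adjusted p = 0.953) turned slightly negative under DESeq2 scaling and under centring.

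Of the 13 sets with a mean of at least 100 TPM, 2 were higher, 7 lower and 4 not called. The lower sets had log2 differences between -2.95 and -0.60. These directions are those with the dominant set kept in the scaling. Without it the median difference over all circRNA entries was 1.09, against 0.06 with it. The strongest of the lower sets had 680 and 844 TPM in PC3 EVs, against 5784 and 5955 TPM in MDA-MB-231 EVs, with replicates close in both lines. Apart from the dominant set, 1 set was higher. It has 9 entries, each with 598 and 776 TPM in PC3 EVs, against 103 and 49.5 TPM in MDA-MB-231 EVs (log2 3.23, limma adjusted p = 0.00034, edgeR adjusted p = 7.61e-05). With the other isolation methods the difference of this set was -0.50 with UC and 0.08 with ATPS (limma adjusted p of the contrast by method 0.00883).

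**Figure D3:**
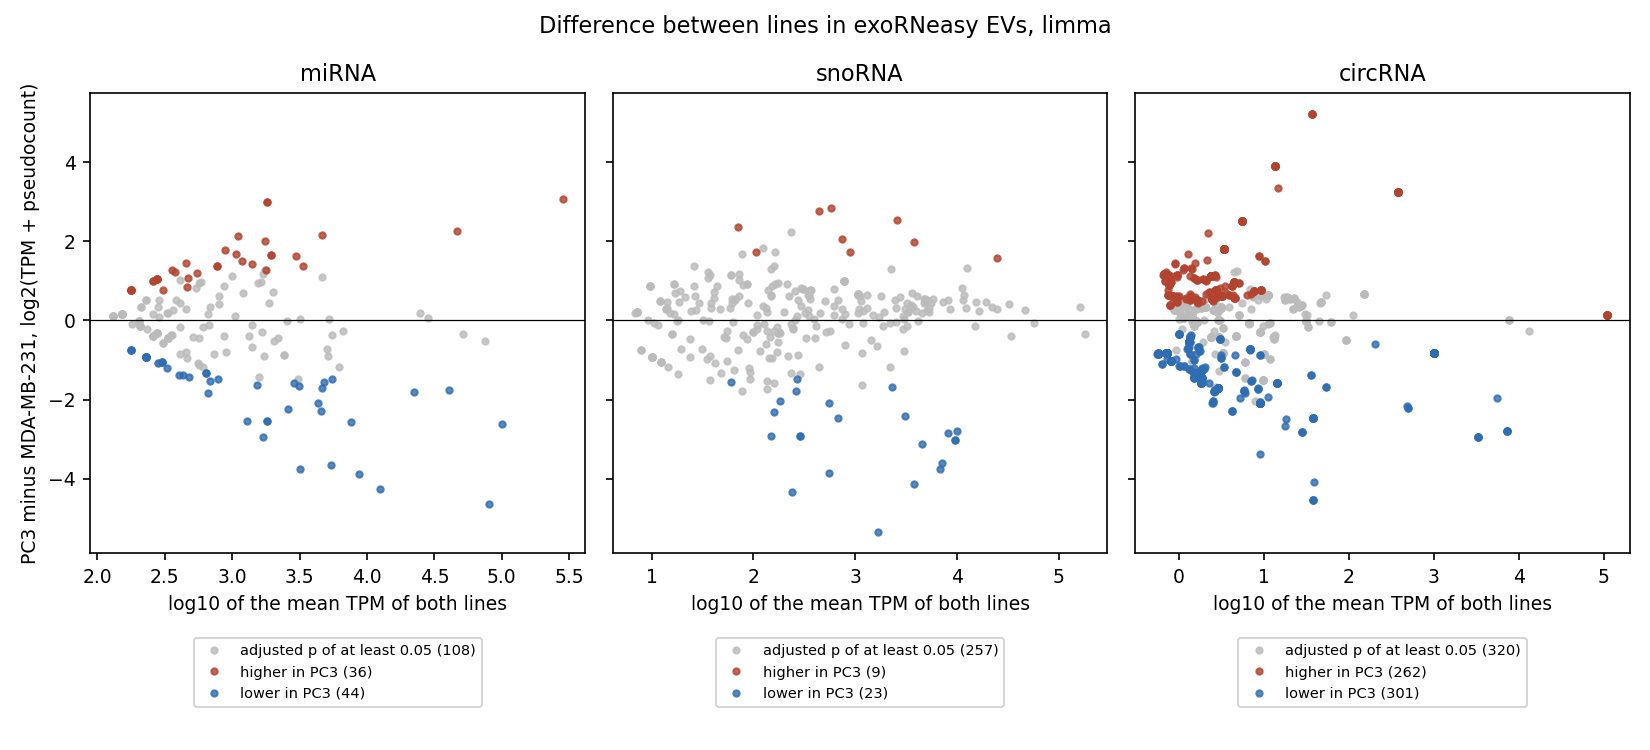
Difference between lines (PC3 minus MDA-MB-231 exoRNeasy EVs) against mean level for each tested entry of the 3 RNA classes. The x axis is the log10 of the mean TPM of both lines and the y axis the difference in log2(TPM + pseudocount); red points were higher in PC3 (36 miRNA, 9 snoRNA and 262 circRNA entries), blue points lower (44, 23 and 301) and grey points not called by limma. Called miRNAs lay on both sides at all levels, and called snoRNAs were few.

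The same line difference was available in EVs from the other isolation methods, whose means share no library with the exoRNeasy means. All 3 differences were fitted in 1 limma model with 1 spread for each entry. Calls in all 3 methods are therefore not independent tests. Of the 15 higher and 23 lower miRNAs with at least 5 reads on average, 12 and 23 had the same sign with both UC and ATPS, and 4 and 11 were called in all 3 methods. The 3 that did not were miR-186-5p, miR-330-3p and miR-181d-5p. Of called snoRNAs, 8 of 9 higher and 20 of 23 lower had the same sign in both, and 4 and 15 were called in all 3. The 4 exceptions were SNORD15B, SNORA50A, SNORA80E and SNORD14B. The share of all tested entries with the same sign in both was not counted, so these counts have no background beside them. Across all tested entries, which are not independent replicates, the exoRNeasy difference and the UC difference had a Pearson coefficient of 0.68 over 188 miRNAs and 0.59 over 289 snoRNAs, and with ATPS it was 0.72 and 0.70. For circRNAs it was 0.67 with UC and 0.83 with ATPS over 883 entries, many of which share reads.

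miR-182-5p and miR-30a-5p differed between the lines with every method. The log2 difference of miR-182-5p was 3.07 with exoRNeasy, 3.95 with UC and 4.54 with ATPS, and the test of exoRNeasy against the mean of the other methods missed the threshold (limma adjusted p = 0.0517). That of miR-30a-5p was -4.65 with exoRNeasy, -5.80 with UC and -4.94 with ATPS. miR-27a-5p gave 2.26, 1.75 and 2.08, and miR-21-5p gave -1.74, -1.58 and -2.12 in the same order. SNORD20 gave 1.58, 1.98 and 2.56.

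**Figure D4:**
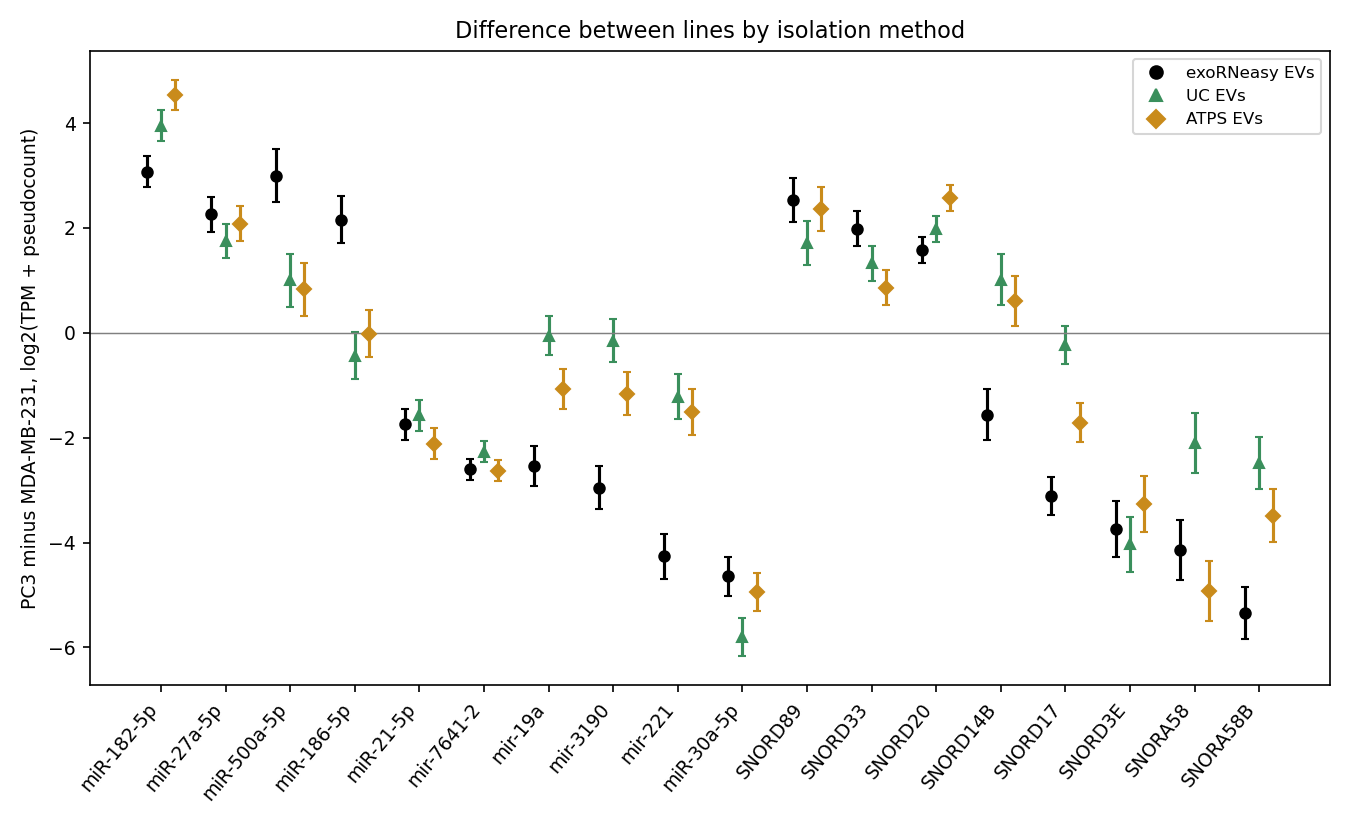
Difference between lines (PC3 minus MDA-MB-231, in log2(TPM + pseudocount)) of named miRNA and snoRNA entries in EVs isolated by exoRNeasy (black circles), UC (green triangles) and ATPS (orange diamonds). Points are limma estimates and error bars their SE, with 2 libraries per line and method. The 3 methods lay on the same side for miR-182-5p and miR-30a-5p, while miR-186-5p was at 2.16 with exoRNeasy, -0.44 with UC and -0.02 with ATPS.

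Other differences were larger with exoRNeasy than with the other methods. The contrast of the exoRNeasy line difference with the mean of the UC and ATPS line differences was called for 17 of 188 miRNAs (9.04%), for none of 289 snoRNAs (0.0%; 52 at an unadjusted p under 0.05, and none by edgeR but 12 by DESeq2) and for 172 of 883 circRNA entries (19.5%). For miRNAs edgeR called 1 and DESeq2 called 2 in the same contrast, so these calls depend on the test. The circRNA count was 71 by edgeR, and with 1 library left out it was between 0 (without PC3 replicate 2) and 44. mir-221 had a log2 difference of -4.26 with exoRNeasy, -1.22 with UC and -1.51 with ATPS (limma adjusted p of the contrast 0.00862). mir-3190 was at -2.95, -0.16 and -1.17 in that order (0.0118), and mir-19a at -2.54, -0.06 and -1.08 (0.0135). miR-500a-5p was at 3.0, 1.00 and 0.83 (0.0474). miR-186-5p was at 2.16 with exoRNeasy, against -0.44 with UC and -0.02 with ATPS (0.0135). For snoRNAs, SNORD17 was nearest to a call, at -3.11 with exoRNeasy, -0.23 with UC and -1.71 with ATPS (0.051). The isolation methods also differ in read depth of their libraries, whose part in these contrasts was not tested.

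In the donor cells the same species gave a mixed picture, which was not tested against the EVs. MDA-MB-231 cell replicate 2 held 153 miRNA reads, so cell values of that line rest largely on replicate 1. miR-182-5p had 102028 and 92179 TPM in PC3 cells, against 19090 and 26144 TPM in MDA-MB-231 cells, the same order as in EVs. miR-30a-5p had 668 and 873 TPM in PC3 cells, against 75208 and 26144 TPM in MDA-MB-231 cells, and miR-21-5p had 7844 and 8059 TPM against 20442 and 32680 TPM, again in the order seen in EVs. miR-27a-5p was nearly absent from cells, with 29.1 and 61.6 TPM in PC3 cells, against 22.5 and 0 TPM in MDA-MB-231 cells. mir-7641-2 had 42734 and 47358 TPM in PC3 cells, against 3110 and 6536 TPM in MDA-MB-231 cells, the opposite order to that in EVs.

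Of the 36 miRNAs higher in PC3 EVs, 17 were also higher in PC3 cells without overlap, none was lower and 19 overlapped, beside 26.1% of all tested miRNAs that were higher and 12.8% that were lower in PC3 cells. Of the 44 lower in PC3 EVs, 11 were lower in PC3 cells, 4 higher (mir-7641-2, mir-93, let-7c-5p and let-7a-5p) and 29 overlapped. MDA-MB-231 cell replicate 2 held reads for only 36 miRNA entries, and any other entry could not count as lower in PC3 cells. miR-146a-5p, with 3 and 11 reads in PC3 cells against 152 and 0, thus counted as overlapping. All counts of miRNAs lower in PC3 cells were limited in advance in this way, and nothing is drawn from them. For snoRNAs the cell tables lean to PC3 as a whole: 57.4% of tested entries were higher and 12.1% lower in PC3 cells. These shares depend on MDA-MB-231 cell replicate 2, which held 16635 snoRNA reads, against 3900437 in replicate 1. An entry without a read in that library could not count as lower in PC3 cells. Against that background, 7 of the 9 snoRNAs higher in PC3 EVs and 16 of the 23 lower in PC3 EVs were higher in PC3 cells. SNORA58B, for example, had 78.2 and 75.5 TPM in PC3 cells, against 2.56 and 0 TPM (10 and 0 reads) in MDA-MB-231 cells. SNORD3A had 1281 and 1030 TPM in PC3 cells, against 250 and 120 TPM (975 and 2 reads) in MDA-MB-231 cells. Each was the reverse of its order in EVs. SNORD20, at 1134 and 1347 TPM in PC3 cells against 310 and 421 TPM in MDA-MB-231 cells, had the same order in both.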

How the data were processed

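Small RNA libraries were made by the authors with the NEBNext small RNA kit. Per the methods, reads were trimmed by quality, selected by size, aligned with STAR to hg38 and annotated with COMPSRA. No version is given in the sources used here. The deposited values are named TPM by the authors but are CPM of 1 RNA class in 1 library, with no length term. They came out as whole multiples of the value of 1 read for 100% of values (within 0.1 read), and the read counts so recovered were used for edgeR and DESeq2. limma 3.58.1 (trend and robust) was fitted to log2(TPM + pseudocount), with pseudocounts of 505 (miRNA), 22.8 (snoRNA) and 1 (circRNA). One model held the 12 EV libraries in 6 groups, over entries with at least 1 TPM in at least 2 exoRNeasy libraries. Benjamini-Hochberg adjustment ran over all entries of a class, with a threshold of 0.05. An entry of any class could pass this filter through 1 line alone. edgeR 4.0.16 and DESeq2 1.42.0 were alternatives. The planned test on the log scale suited CPM as well as TPM. Where a line had no read, bounds use 3 reads over its 2 libraries. Named entries were the 12 largest called changes per direction for miRNA and snoRNA (5 for circRNA) with lines that did not overlap and a mean of at least 5 reads in the higher line, the 5 most abundant of each line (8 for circRNA), called list members, miR-21-5p and miR-16-5p. Entries described beyond that, and the examples in donor cells, were chosen after their values were seen. Members and the 35 lists were chosen with earlier results of these data known. The limma step was also run on simulated independent counts with 1 fixed spread. Real circRNA entries share reads, and that run is not used as support for any call. Every sample column matched a library, and plasma was not analysed here.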

Additional observations from a re-analysis of the deposited data

Results flagged for a closer look

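By limma, the difference between the lines differed by isolation method for 17 miRNA entries and 172 circRNA entries, in a contrast of the exoRNeasy line difference with the mean of the UC and ATPS line differences at an adjusted p under 0.05. These counts depend on the test and on single libraries: edgeR called 1 miRNA and DESeq2 called 2, and edgeR called 71 circRNA entries, while with 1 library left out limma called 0 to 44 circRNA entries, with 0 without PC3 replicate 2. Positive values mean that PC3 stood higher relative to MDA-MB-231 with exoRNeasy than with the other methods. In log2 units this contrast was 2.08 for miR-500a-5p, 2.15 for mir-500b, which has the same reads, and 2.39 for miR-186-5p. It was -2.90 for mir-221, -2.29 for mir-3190 and -1.98 for mir-19a. It was 1.60 for miR-93-5p, 1.06 for miR-30e-3p and -1.19 for mir-320e, which rest on 1 to 3 reads in each exoRNeasy library that had any. For circRNAs it was 1.96 for hsa_circ_0060056 and 1.49 for hsa_circ_0011934.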

How the results depend on the processing

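Of 104 named entries called by limma, 30 kept direction and call under every alternative run (10 of 54 miRNA, 10 of 32 snoRNA and 10 of 18 circRNA entries), among them miR-182-5p, miR-27a-5p, miR-30a-5p, miR-21-5p, SNORD20, SNORD89, SNORD33, SNORA58 and SNORD17. The count of miRNA calls, 80, was 20 with DESeq2, 25 with edgeR, 36 among entries with at least 5 reads in 2 libraries, 52 over mature names only, 48 with a pseudocount of 1, 19 in the exoRNeasy libraries alone, and 66 to 74 with 1 library left out. Without species over 5% of TPM it was 42 higher and 34 lower, and the median log2 difference over all miRNAs was 0.16, against -0.15. The snoRNA count, 32, was 11 in the exoRNeasy libraries alone and 25 to 33 with 1 library left out. edgeR put the snoRNA median at -0.19, against 0.21 with limma, and its calls at 6 higher and 28 lower. The circRNA count, 563, was 282 with 1 entry for each set (an alternative chosen after seeing the data, as were edgeR and DESeq2 for the contrast by method), 938 with no filter, 386 with cell libraries in the fit and 404 to 461 with 1 library left out. The contrast by method gave 17 miRNAs (2 with DESeq2, 1 with edgeR, 13 to 32 with 1 library left out, the highest without MDA-MB-231 replicate 1). It gave no snoRNA by limma (12 with DESeq2, 2 with a pseudocount of 1, 0 to 9 with 1 library left out) and 172 circRNA entries (106 with 1 entry for each set, 71 with edgeR, 0 to 44 with 1 library left out, with 0 without PC3 replicate 2). The difference in detected circRNA entries, -11612.5, was -988 at equal reads. The 8 entries of the dominant circRNA set were the only named ones to change sign, to -0.094 with DESeq2 and -0.0027 when centred on entries present in all EV libraries. Labels number the replicates alike in both lines, and deviations of same-numbered libraries had correlations of 0.03, 0.10 and 0.44 for miRNA, snoRNA and circRNA. Over all pairs of EV groups these ran between -0.12 and 0.37, -0.22 and 0.57, and -0.39 and 0.80. Since they were not above 0 in every pair and no label says what a number marks, the libraries were not taken as pairs. With the replicate block the counts of calls were 83, 34 and 593, and the contrast by method gave 17 snoRNAs. Depth limits miRNAs most, where 1 read was worth 205 to 505 TPM.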
